A study of Homo sapiens with 12 samples.

Results

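A solitary promoter was taken here as the 5′ end of a protein-coding gene that has no neighbour. For each protein-coding gene of the GENCODE annotation on chromosomes 1 to 22 and X (release 44, lifted to GRCh37), the most 5′ annotated end was kept if no 5′ end of any other annotated gene, coding or not, lay within 5 kb. Of 20098 protein-coding genes, 10307 met this rule, 5252 on the plus strand and 5055 on the minus strand. At such a promoter, the side on which a peak lies can be read against 1 gene only. Summits of H3K4me3 peaks, the highest point of each peak in the deposited lists, were assigned to a promoter when they lay within 2.5 kb of its 5′ end. Positions are given in bp along the direction of transcription, positive downstream and negative upstream. A downstream position lies in the gene, except where the gene is shorter than the window and ends before it. Positions and sequences are on GRCh37.

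The peaks came from CUT&RUN, which tethers a nuclease to antibody-bound chromatin in permeabilized cells and sequences the DNA it frees. The cells were BON1, a human pancreatic neuroendocrine tumor line, carrying either the vector pQ (control) or Bcl-xL with an HA tag (HA-Bcl-xL). Bcl-xL is a BCL2 family protein that blocks apoptosis. Both were derivatives named BON1/TGL, both were grown in puromycin, and each was profiled with an antibody to H3K4me3 or with a rabbit anti-mouse IgG as background. Lists of 11 libraries entered, 5 with H3K4me3 (control replicates 1, 2 and 3, and replicates 2 and 3 of HA-Bcl-xL) and 6 with IgG, 3 for each line. Replicate 1 of HA-Bcl-xL with the H3K4me3 antibody was not analysed here. Nothing in the labels says that replicates came from separate cultures, so p-values measure only the spread between these libraries, which may be technical.

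H3K4me3, trimethylation of lysine 4 of histone H3, marks nucleosomes at the starts of active genes, and above all at promoters rich in CpG dinucleotides. It is written by the SET1 and MLL methyltransferase complexes. At a typical active start the mark lies on nucleosomes on either side of a stretch depleted of nucleosomes, where transcription factors and the polymerase assemble, with the more strongly marked ones in the first part of the gene. Many promoters start an antisense transcript as well as the gene, and at a divergent pair of genes each direction has its own gene.

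Examples of both kinds of summit position are shown first, at the 5′ end and inside the gene. Their names came from the rules given below with their values. At the promoters of EPHA10 (a receptor of the Eph family), SPC24 (a subunit of the NDC80 kinetochore complex), GFOD2 and ZBTB6 (a zinc finger protein), the strongest summit lay just before the 5′ end in all 5 H3K4me3 libraries. At DPF2 (a subunit of BAF chromatin remodelling complexes) it lay just after the 5′ end. The 100 bases before the 5′ end are printed, on the strand of the gene. Capitals mark the letters CCAAT (the CCAAT box), GGGCGG (the GC box), CCGGAAG (the core of ETS factor motifs) and GCGCATG (a core of the NRF1 motif), on either strand. For DPF2 none of these letters was found.
EPHA10 chr1:38230806-38230905, minus strand: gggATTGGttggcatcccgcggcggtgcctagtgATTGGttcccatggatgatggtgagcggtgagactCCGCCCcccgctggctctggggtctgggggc
SPC24 chr19:11266484-11266583, minus strand: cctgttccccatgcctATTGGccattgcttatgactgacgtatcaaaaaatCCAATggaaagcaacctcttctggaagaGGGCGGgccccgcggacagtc
GFOD2 chr16:67753243-67753342, minus strand: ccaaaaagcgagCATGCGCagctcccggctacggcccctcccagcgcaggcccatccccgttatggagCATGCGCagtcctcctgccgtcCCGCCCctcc
ZBTB6 chr9:125675603-125675702, minus strand: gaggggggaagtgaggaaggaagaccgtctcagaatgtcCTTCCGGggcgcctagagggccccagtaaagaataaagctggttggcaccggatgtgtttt
DPF2 chr11:65101214-65101313, plus strand: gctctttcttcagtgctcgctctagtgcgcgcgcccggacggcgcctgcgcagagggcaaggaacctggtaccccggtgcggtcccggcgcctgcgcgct

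For the more frequent position inside the gene, 101 bases centred on the median strongest summit are printed for 3 promoters where that summit lay inside the gene, in no annotated exon. It lay at 504 bp in SRP9 (a subunit of the signal recognition particle), at 973 bp in ASXL2 (a Polycomb-group cofactor) and at 437 bp in FKBP8 (an immunophilin that binds BCL2 proteins). The same letters are in capitals. The FKBP8 window holds a CCAAT, and the 5′ end of that gene's canonical transcript lies further on, at 504 bp.
SRP9 chr1:225965969-225966069, plus strand: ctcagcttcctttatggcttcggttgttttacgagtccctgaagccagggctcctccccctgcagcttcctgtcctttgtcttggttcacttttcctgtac
ASXL2 chr2:26100333-26100433, minus strand: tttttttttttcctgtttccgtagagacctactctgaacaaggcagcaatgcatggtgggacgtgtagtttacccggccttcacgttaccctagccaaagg
FKBP8 chr19:18654400-18654500, minus strand: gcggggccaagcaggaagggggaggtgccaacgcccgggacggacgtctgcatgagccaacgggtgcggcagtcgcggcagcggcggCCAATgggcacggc

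Most solitary promoters had no H3K4me3 summit in BON1 cells. A summit was present in at least 1 H3K4me3 library at 4120 (40%) and in all 5 at 1644 (16%), while 6187 (60.0%) had none. Among the 9791 protein-coding promoters with another 5′ end within 5 kb, 6624 (67.7%) had a summit in at least 1 library and 3498 (35.7%) in all 5. Between these, 705, 505, 563 and 703 solitary promoters had a summit in 1, 2, 3 and 4 libraries.

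In the control H3K4me3 libraries, 3337, 2602 and 2306 solitary promoters had a summit in replicates 1, 2 and 3 (32.4%, 25.2% and 22.4%). In replicates 2 and 3 of HA-Bcl-xL the numbers were 3141 and 3050 (30.5% and 29.6%), inside the range of the control libraries. The lines differed by 3.37 percentage points, 30.0 ± 0.624% (SD, n = 2) against 26.7 ± 5.15% (SD, n = 3), with p = 0.6 (two-sided exact permutation test, smallest possible p 0.2). With lists cut to equal length the difference was 0.589 points, without control replicate 1 it was 6.22 and without control replicate 3 it was 1.22. These libraries had lists of 17687, 12138 and 10237 peaks in control and 16363 and 15478 in HA-Bcl-xL. The lowest background solved from each list, a relative measure of depth, was 0.0659, 0.0705, 0.0478, 0.0692 and 0.0681 fragments per base in the same order. The part of list length or depth in the number of marked promoters was not tested beyond these values.

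With IgG, 44, 46 and 43 solitary promoters had a summit in control replicates 1 to 3, and 5, 8 and 3 in those of HA-Bcl-xL cells. The control IgG lists held 1694, 1665 and 2106 peaks and the HA-Bcl-xL ones 262, 261 and 239. As a share of the list, the peaks at solitary promoters were 2.47 ± 0.378% and 2.08 ± 0.917% (SD, n = 3 each), against 29.1 to 29.9% in the H3K4me3 lists. The difference between the antibodies was 26.2 percentage points in control cells (0.430 ± 0.0148% with IgG, SD, n = 3; p = 0.1, the smallest that the exact permutation test can give) and 30.0 points in HA-Bcl-xL cells (0.0517 ± 0.0244% with IgG, SD, n = 3; exact permutation p = 0.2, the smallest possible). Every IgG library was below every H3K4me3 library.

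Fewer solitary than other protein-coding promoters carried a summit in every H3K4me3 library. The means were 28.0 ± 4.09% and 53.4 ± 6.08% (SD, n = 5), a difference of -25.4 points. The other promoters have a neighbour by definition, and where it lies within the window its peaks are counted too. The rule can thus set this direction, and no p is read from it. How much of the difference comes from neighbours was not tested. Classes of promoters were compared by a two-sided exact sign-flip permutation test over the 5 libraries, whose smallest p is 0.0625, so no comparison of this kind could pass 0.05. Over the 17 comparisons made here the smallest Benjamini-Hochberg adjusted p was 0.106. Base composition moved with the mark. CpG-rich sequence (at least 50% GC and an observed to expected CpG ratio of at least 0.6 within 500 bp) was found at 4955 solitary promoters. Of these, 48.0 ± 6.93% (SD, n = 5) had a summit, against 9.54 ± 1.47% of the 5352 CpG-poor ones. This difference of 38.4 points had the same sign in 5 of 5 libraries (exact sign-flip permutation p = 0.0625, adjusted p = 0.106). The classes also differ in composition, with CpG-rich sequence at 48.1% of solitary and 67.9% of the other promoters. Among the other promoters, with their neighbours' peaks counted, 66.3 ± 7.57% (SD, n = 5) of 6644 CpG-rich ones had a summit.

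Where a solitary promoter carried H3K4me3, the summits lay mostly inside the gene. Control replicates 1, 2 and 3 had 5297, 3554 and 2980 summits at solitary promoters, and 71.1% (95% Wilson interval 69.9 to 72.3%), 70.5% (69.0 to 72.0%) and 70.4% (68.7 to 72.0%) of those off the 5′ end itself were downstream. HA-Bcl-xL replicates 2 and 3 had 4779 and 4523 summits, with 71.6% (70.3 to 72.8%) and 71.3% (70.0 to 72.6%) downstream. These intervals cover counting error only. The mean over the 5 libraries stood 21.0 ± 0.511 points above 50% (SD, n = 5), and the share was above 50% in 5 of 5 libraries. Position 0 is the most 5′ end, so every other annotated start of the gene lies downstream of it by definition. For this reason 50% is not a neutral reference, and no p is read from the comparison with it. With only the strongest summit of each promoter the share was 68.0%, 68.4%, 68.1%, 69.2% and 69.2% in the same order, 18.6 points above 50%. Genes of both strands showed it, with 69.4 to 70.5% downstream on the plus strand and 71.1 to 72.9% on the minus strand. The IgG summits were few, with 63.6%, 54.3% and 60.5% downstream of 44, 46 and 43 in control cells. Their Wilson intervals ran from 48.9 to 76.2%, 40.2 to 67.8% and 45.6 to 73.6%, so a side was not detectable at that number. With IgG in HA-Bcl-xL cells, 60%, 25% and 100% of only 5, 8 and 3 summits were downstream.

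The choice of anchor moved this share. Measured from the 5′ end of the gene's canonical transcript instead of the most 5′ end, the share over all summits was 12.0 points above 50%, and over strongest summits 8.77 points. With a window of 1 kb the strongest summits stood 12.3 points above 50%. With the summits from -150 to 100 bp left out, the share over all summits stood 34.9 points above 50%.

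At divergent promoters fewer than 50% of summits were downstream in each library. These are protein-coding 5′ ends with a 5′ end of another gene on the other strand, upstream and within 1 kb. There were 3317 of them. Their summits were downstream in 46.0 ± 1.04% (SD, n = 5), against 71.0 ± 0.511% at solitary promoters. The difference was 24.9 ± 0.690 points, and for the strongest summits 24.2 ± 0.983 points. A divergent promoter has, by its definition, another gene's start just upstream, and peaks of that gene within the window count as upstream. The definition can thus set the direction of both differences, to an extent that was not tested. They were among the 17 comparisons, and no p is read from them. The contrast was seen in CpG-rich sequence (69.5 ± 0.669% against 46.5 ± 1.06%), in CpG-poor sequence (78.0 ± 1.05% against 40.6 ± 1.34%) and at genes with no other annotated start of their own 200 to 2500 bp downstream (63.5 ± 1.26% against 41.3 ± 1.07%). At all promoters with another 5′ end within 5 kb, the share downstream was 54.8 ± 0.632% in CpG-rich sequence. In CpG-poor sequence it was 66.5 ± 1.24%. These values within classes (SD, n = 5) were not tested.

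The window was split into 6 zones to show where the 2 classes differ. The zone limits were drawn after the positions had been seen, so the zones are a description. From -150 to 100 bp, at the 5′ end itself, both classes had a similar share, 26.4 ± 1.31% of summits at solitary and 27.6 ± 1.49% at divergent promoters (SD, n = 5). From 201 to 1000 bp solitary promoters held 39.1 ± 0.748% and divergent ones 27.9 ± 0.418%, and from 1001 to 2500 bp they held 21.2 ± 0.550% and 9.59 ± 0.486%. Upstream, from -500 to -151 bp, the shares were 7.15 ± 0.493% and 14.1 ± 0.813%. From -2500 to -501 bp solitary promoters held 3.98 ± 0.494% and divergent ones 19.1 ± 0.471%. The zone from 101 to 200 bp, the shortest of the 6, held 2.13 ± 0.0980% and 1.77 ± 0.0742%.

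**Figure D1:**
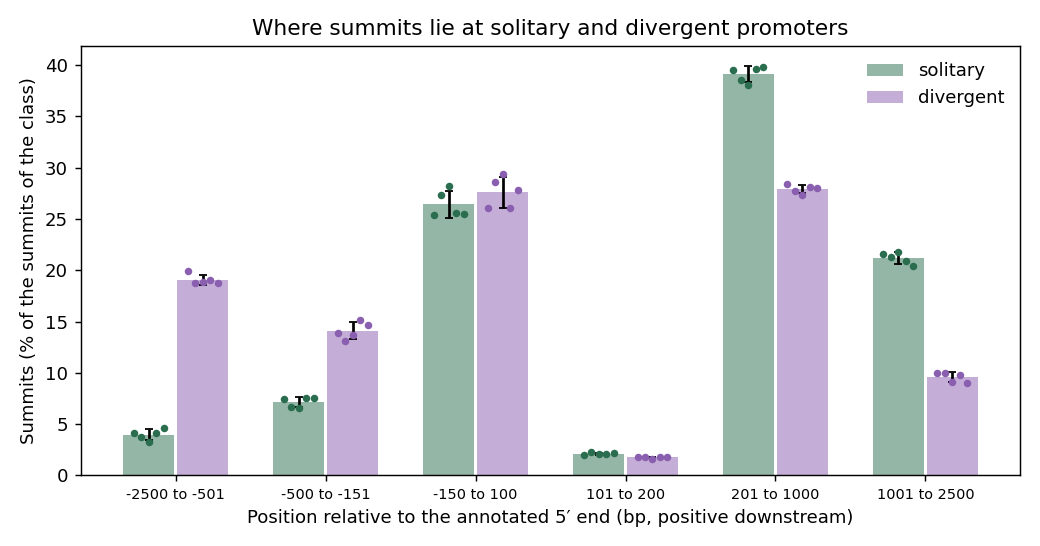
Share of H3K4me3 summits (%) in 6 zones around the 5′ end at solitary and divergent protein-coding promoters. Bars are means over the 5 H3K4me3 libraries, error bars are the SD and points are single libraries (control 1 to 3, then HA-Bcl-xL 2 and 3, left to right); zones differ in length. The zones upstream of -150 bp are fuller at divergent promoters and those beyond 200 bp at solitary ones.

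Summits were most crowded right at the 5′ end. Counted per length, the zone from -150 to 100 bp held 335 to 535 summits per 100 bp in the 5 libraries, against 142 to 261 from 201 to 1000 bp and 62 to 107 from 101 to 200 bp. From -500 to -151 bp there were 55.7 to 113 per 100 bp, from 1001 to 2500 bp 43.3 to 76.1 and from -2500 to -501 bp 4.9 to 11.1. Its peaks also ranked higher in their own lists. The median percentile rank by the deposited -log10 p was 60.0 to 65.0 there, 51.3 to 54.4 from 201 to 1000 bp and 36.9 to 46.9 beyond -500 bp. Over whole sides, downstream summits ranked lower than upstream ones, at 51.7 ± 1.04 against 57.1 ± 1.18 percentile points (SD, n = 5). This difference of -5.32 ± 1.59 points had the same sign in 5 of 5 libraries (exact sign-flip permutation p = 0.0625, adjusted p = 0.106). With the summits from -150 to 100 bp left out, an alternative added after seeing the data, it was 3.65 points, and with those within 50 bp left out -0.566. Peak width on the sides had a log2 difference of 0.00110 ± 0.0419 (SD, n = 5; exact sign-flip permutation p = 0.938). With the summits from -150 to 100 bp left out it was 0.0998, the downstream peaks being wider (exact sign-flip permutation p = 0.0625, the smallest possible with 5 libraries).

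The positions were resolved further at the 5911 promoters whose canonical 5′ end lay within 20 bp of the most 5′ end. Smoothed with a Gaussian of 20 bp SD, the density of 11146 summits from the 5 libraries had its highest point at -23 bp. Single libraries peaked at -24, -26 and -27 bp in control replicates 1 to 3 and at -20 and -19 bp in replicates 2 and 3 of HA-Bcl-xL. A low followed at 133 bp (113 to 162 bp in single libraries), then maxima at 266, 449, 619 and 793 bp and, upstream, at -295 bp. In single libraries the first of these fell at 252 to 272 bp and the next at 445 to 482 bp. The 2 after that fell at 600 to 667 bp and at 766 to 851 bp, and control replicate 1 had further maxima at 717 and 925 bp. The upstream one fell at -314 to -272 bp. At the highest point 2.51 summits per bp were found per 1000 summits, at the low 0.0888 and at 449 bp 0.633. The summits of the 5 libraries at a promoter are not independent of each other, so the pooled curve has no error of its own.

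**Figure D2:**
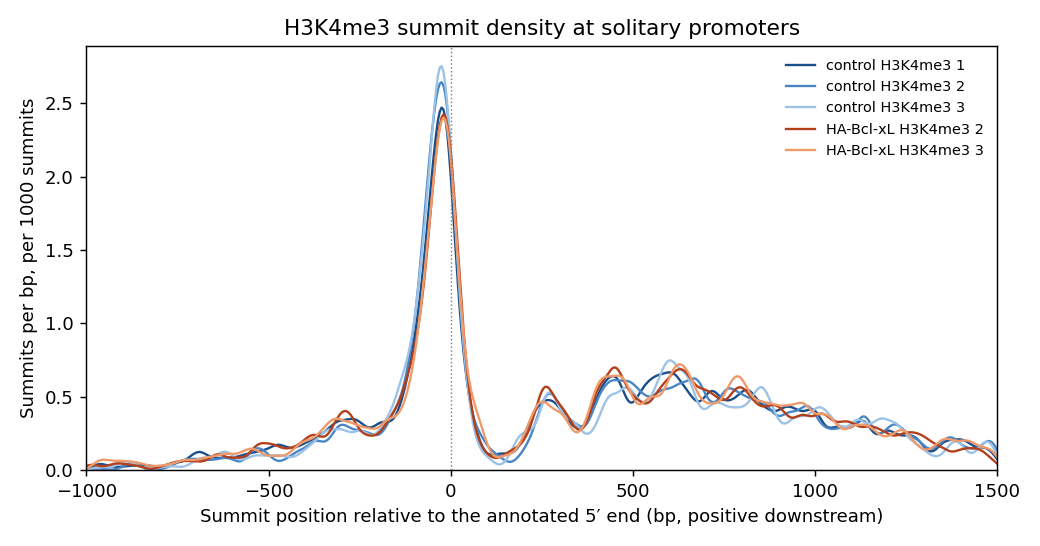
Density of H3K4me3 summits (per bp, per 1000 summits of the library, smoothed) against position relative to the 5′ end (bp) at solitary promoters whose canonical and most 5′ ends lie within 20 bp. Each line is 1 library; all 5 have a narrow maximum 19 to 27 bp before the 5′ end, a low near 133 bp and lower maxima inside the gene.

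Most downstream summits lay past the first exon, which covers a small part of the window. The first exon of the transcript with the most 5′ end had a median length of 203 bp over all solitary promoters, and 78.5 to 79.8% of downstream summits lay past its end. The median distance past that end was 400 to 433 bp. At promoters with a first exon of at least median length the median summit position was 555.1 ± 17.5 bp, and at those with a shorter one 318.9 ± 13.2 bp (SD, n = 5). The difference of 236 ± 21.0 bp had the same sign in 5 of 5 libraries (exact sign-flip permutation p = 0.0625, adjusted p = 0.106). It was 377 bp between the longest and shortest 25%. In a window of 1 kb it was 48.1 bp (exact sign-flip permutation p = 0.125), without the same sign in every library.

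Further starts of the same gene also moved with the position. At the 3799 promoters whose gene had another annotated 5′ end 200 to 2500 bp downstream, 77.9 ± 0.224% of summits were downstream. At the 6508 without such an end the share was 63.5 ± 1.26% (SD, n = 5). The difference was 14.4 ± 1.44 points. Peaks at such an end count as downstream by definition, so this direction is a description and no p is read from it. Anchored at the canonical transcript it was 1.82 points. Of the summits beyond 100 bp, 21.2% (708 of 3340), 22.4% (494 of 2210) and 23.3% (431 of 1846) in control replicates 1 to 3 lay from 150 bp before to 100 bp after another annotated 5′ end of the same gene. In replicates 2 and 3 of HA-Bcl-xL these shares were 21.7% (649 of 2996) and 22.2% (625 of 2821). The summits at such an end had a median percentile rank of 57.9 to 59.9, and the other summits beyond 100 bp 47.9 to 50.3, with no overlap between the 2 ranges. This was looked at after the positions had been seen, and was not tested. How much of the window such stretches cover was not measured, so no excess of summits is read from these shares.

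A promoter with H3K4me3 usually held 1 peak and often 2. In control replicates 1, 2 and 3 there were 1.59, 1.37 and 1.29 peaks per marked solitary promoter, and in replicates 2 and 3 of HA-Bcl-xL there were 1.52 and 1.48. In control, 1854, 1806 and 1721 promoters had 1 peak and 1086, 659 and 511 had 2. In HA-Bcl-xL, 1871 and 1898 had 1 peak and 964 and 878 had 2. The number with 1 peak stayed in a narrow range, while the number with more peaks had the same order as list length. Promoters with 4 or more numbered 71, 16, 10, 52 and 40, and no promoter had more than 6. The lines differed by 0.0871 peaks per promoter, 1.50 ± 0.0273 (SD, n = 2) against 1.42 ± 0.154 (SD, n = 3; two-sided exact permutation p = 0.6). The difference was 0.0278 with equal list lengths, 0.173 without control replicate 1 and 0.0256 without control replicate 3. Solitary promoters had fewer peaks than other protein-coding ones, 1.45 ± 0.119 against 1.62 ± 0.165. This difference of -0.166 ± 0.0471 peaks (SD, n = 5) is a description only, since peaks of a neighbour within the window are counted at the other promoters.

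**Figure D3:**
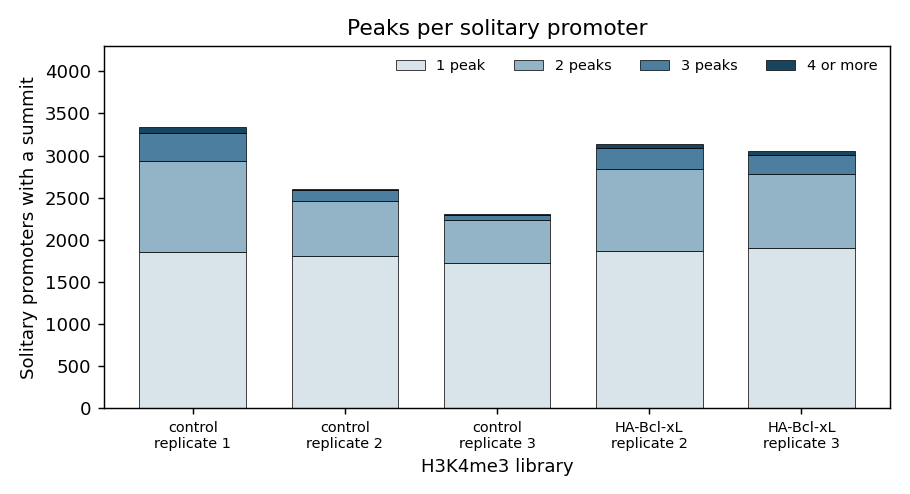
Number of solitary promoters with 1, 2, 3 and 4 or more peaks in each H3K4me3 library (stacked bars, counts). The part with 1 peak runs from 1721 to 1898, while the part with more peaks is largest in control replicate 1 and smallest in control replicate 3.

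Where a promoter had 2 or more peaks, they were somewhat more often all downstream of the 5′ end than on both sides of it, in each library. Of 1483, 796 and 585 such promoters in control replicates 1 to 3, 43.2%, 42.2% and 43.6% had summits on both sides and 49.4%, 51.3% and 50.8% had all of them downstream. In replicates 2 and 3 of HA-Bcl-xL, with 1270 and 1152 such promoters, 44.1% and 43.1% had both sides and 50.1% and 50.4% downstream alone. Only 5.12 to 6.54% had all of them upstream. Neighbouring summits were a median of 458 to 509 bp apart, and none closer than 115 bp.

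Position differed little between the lines. The share of summits downstream was 71.4 ± 0.202% in HA-Bcl-xL (SD, n = 2) and 70.7 ± 0.393% in control (SD, n = 3). This difference of 0.761 points came with no overlap between the groups, and p = 0.2 is the smallest that the exact permutation test allows. Its direction turned to -0.173 points with summits within 50 bp of the 5′ end left out, and to -1.45 points with those from -150 to 100 bp left out. With equal list lengths it was 0.0415 and in a window of 1 kb 1.46. The median position was 444, 436 and 431 bp in control cells and 430 and 424 bp in HA-Bcl-xL, a difference of -10 bp (exact permutation p = 0.2). In a window of 1 kb it was 24 bp, in the other direction, and from -29 to -6.5 bp under the other alternatives.

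The 1644 solitary promoters with a summit in all 5 libraries show how repeatable the position was. The strongest summit was downstream in all 5 libraries at 844 (51.3%), upstream in all 5 at 294 (17.9%) and on different sides at 506 (30.8%). It stayed between -150 and 100 bp in every library at 335 (20.4%). The strongest summits of the 5 libraries spanned a median of 183.5 bp, with quartiles of 50 and 578 bp. They spanned at most 50 bp at 415 promoters and more than 500 bp at 472. The strongest summit lay further downstream in every HA-Bcl-xL than in every control library at 170 (10.3%), and the other way at 183 (11.1%). At promoters with another 5′ end within 5 kb these shares were 336 (9.61%) and 318 (9.09%) of 3498. More peaks in every HA-Bcl-xL than in every control library were counted at 79 (4.81%), and the opposite at 12 (0.73%), against 136 (3.89%) and 27 (0.772%) at the other promoters. Each promoter had 1 peak in each library at 301, and at least 2 in each at 242.

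Among promoters whose every summit was downstream in all 5 libraries, those with the highest mean rank of the strongest peak were SERPINH1, SRP9, QARS1, AP1G2 and SCAMP2. SERPINH1 (chr11:75273101-75283828, plus strand), a collagen chaperone of the endoplasmic reticulum, had its summit at 714, 728 and 728 bp in control replicates 1 to 3 and at 699 and 714 bp in replicates 2 and 3 of HA-Bcl-xL. SRP9 (chr1:225965515-225978170, plus strand), whose summit window is printed above, had it at 514, 500 and 514 bp and at 504 and 493 bp, with a weaker peak further on in each library. All 5 libraries thus placed these strongest summits within 29 and 21 bp. QARS1 (chr3:49133365-49142563, minus strand), the glutaminyl-tRNA synthetase, had it at 310, 334 and 288 bp and at 311 and 312 bp. Its canonical transcript starts at 373 bp, so these summits lay before that start. AP1G2 (chr14:24028774-24037279, minus strand), a subunit of the AP-1 clathrin adaptor, had it at 510, 519 and 510 bp and at 510 and 493 bp, in a first exon of 960 bp. SCAMP2 (chr15:75136071-75165706, minus strand), a secretory carrier membrane protein, had a single peak in each library, at 292, 287 and 285 bp and at 298 and 292 bp.

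The promoters chosen likewise among those with every summit upstream were POLL, ENSG00000269755, EPHA10, SPC24 and GFOD2. POLL (chr10:103338639-103348027, minus strand), DNA polymerase lambda, had 1 peak in each library, at -17, -17 and -17 bp in control cells and at -30 and -17 bp in HA-Bcl-xL. EPHA10 (chr1:38179552-38230805, minus strand) had it at -79, -90 and -81 bp and at -102 and -101 bp. SPC24 (chr19:11242196-11266483, minus strand) had it at -4, -8 and -18 bp and at -4 and -4 bp. GFOD2 (chr16:67708434-67753242, minus strand) had its strongest summit at -91, -70 and -64 bp and at -93 and -73 bp. The protein-coding gene ENSG00000269755 (chr19:12543917-12595630, minus strand) had it at -63, -61 and -45 bp and at -52 and -75 bp. The rule asked only that summits be upstream, within 2.5 kb, and each of these strongest summits lay within 102 bp of the 5′ end. The bases printed above for EPHA10, SPC24 and GFOD2 cover them, except at EPHA10 in HA-Bcl-xL, where they lay just before the printed stretch.

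The tightest positions, by the span over the 5 libraries, were those of DPF2, ASXL2, ZBTB6, SEPHS2 and FKBP8. At DPF2 (chr11:65101314-65121733, plus strand) the summit lay at 6, 8 and 6 bp in control cells and at 6 and 6 bp in HA-Bcl-xL. At ZBTB6 (chr9:125670335-125675602, minus strand) the strongest summit lay at -17, -16 and -16 bp and at -14 and -16 bp. These 2 sat on the 5′ end. ASXL2 (chr2:25956622-26101356, minus strand) had it at 973, 973 and 973 bp and at 975 and 976 bp. SEPHS2 (chr16:30454952-30457195, minus strand), a selenophosphate synthetase, had it at 1000, 1004 and 1001 bp and at 1000 and 1001 bp, in a first exon of 2244 bp that spans the gene. FKBP8 (chr19:18642561-18654887, minus strand) had it at 435, 435 and 442 bp and at 438 and 437 bp. FKBP8's summits lay just before its canonical start, whereas the canonical transcripts of ASXL2 and SEPHS2 start at the 5′ end used here.

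The promoters with the most peaks were SCG2, CDC42BPA, HNRNPC, MLLT11 and EPC1. SCG2 (chr2:224461658-224467079, minus strand) encodes secretogranin II, a granule protein of neuroendocrine cells. It had 2, 5 and 6 peaks in control and 6 and 5 in HA-Bcl-xL, all downstream, from 151 to 2082 bp. The 2 peaks of control replicate 1 were 1252 and 503 bp wide. The wider one covered places that were called as separate peaks in the other libraries, so the lower count does not mean fewer marked places. CDC42BPA (chr1:227177566-227506193, minus strand), a kinase bound by CDC42, had 4, 4 and 4 peaks and 5 and 5, all downstream, in and past a first exon of 1488 bp. Its strongest summit lay at 2335, 2347 and 2372 bp in control cells and at 784 and 781 bp in HA-Bcl-xL. The peaks at these 2 places were near in height in several libraries, with 37 fragments at 782 bp and 38 at 2335 bp in control replicate 1, 30 and 33 at 777 and 2347 bp in control replicate 2, and 37 and 31 at 784 and 2315 bp and 45 and 35 at 781 and 2330 bp in HA-Bcl-xL. Control replicate 3 had 23 fragments at 2372 bp and no peak below 1403 bp. HNRNPC (chr14:21677295-21737653, minus strand), an RNA-binding protein of nascent transcripts, had 5, 5 and 5 peaks and 4 and 3. Its strongest summit stayed at 627, 685 and 616 bp and at 639 and 639 bp. MLLT11 (chr1:151032873-151042020, plus strand), first found as a fusion partner of KMT2A in leukemia, had 6, 4 and 2 peaks and 4 and 5, on both sides. Its strongest summit lay at -1600, -1586 and -1581 bp in control, and at -112 and 926 bp in HA-Bcl-xL. The peaks at these positions had 31 fragments at -112 bp and 24 at -1544 bp in HA-Bcl-xL replicate 2, and 32 at 926 bp and 26 at -1582 bp in replicate 3. In control replicates 1, 2 and 3 the peak near -1600 bp had 34, 34 and 32 fragments, and the next strongest, at 945, 969 and 392 bp, had 28, 26 and 15. EPC1 (chr10:32556679-32667726, minus strand), a subunit of the NuA4 acetyltransferase complex, had 5, 4 and 5 peaks and 2 and 3. The strongest summit of the 5 libraries spanned 69 bp at HNRNPC, 676 bp at SCG2, 1268 bp at EPC1, 1591 bp at CDC42BPA and 2526 bp at MLLT11, so where there were many peaks the strongest was often not the same one.

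**Figure D4:**
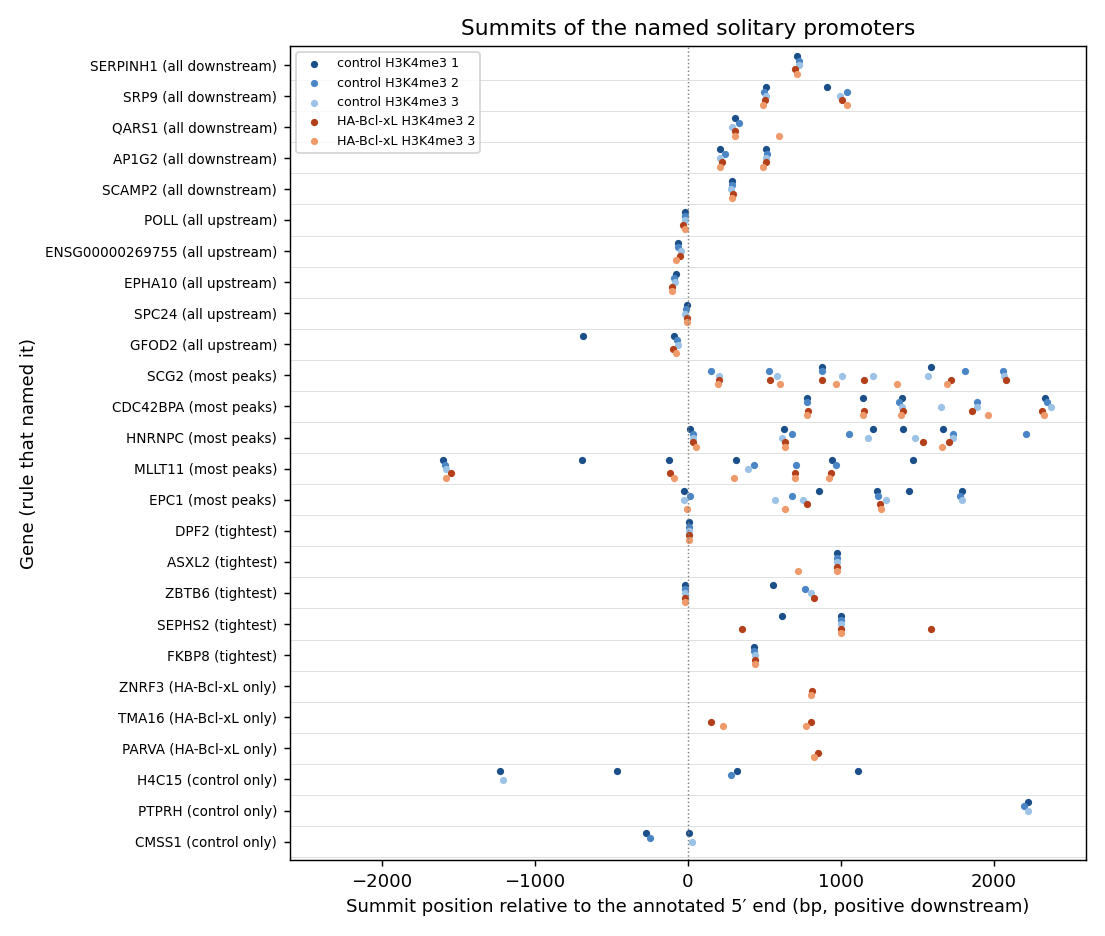
Positions (bp from the 5′ end, positive downstream) of all summits at the named solitary promoters, coloured by H3K4me3 library. Rows give the gene and the rule that named it; summits named as tightest fall on top of each other across libraries, and promoters with the most peaks spread over the window.

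Summits found in 1 line only were few. A summit in both libraries of HA-Bcl-xL but in none of control was found at 92 solitary promoters (0.893%), and in all 3 control libraries and neither HA-Bcl-xL library at 24 (0.233%). At the other protein-coding promoters these numbers were 75 (0.766%) and 26 (0.266%), so solitary promoters were near this background. The 2 counts also differ in how many libraries they ask for. Leaving out control replicate 1 raised the first to 301, and leaving out HA-Bcl-xL replicate 2 or 3 raised it to 259 or 255. With equal list lengths it was 73 and the second was 42. The second was 54 and 69 without control replicates 2 and 3, and 113 and 90 without HA-Bcl-xL replicates 2 and 3. These alternatives were added after seeing the data.

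By mean rank, the first 3 promoters of the HA-Bcl-xL set were ZNRF3, TMA16 and PARVA. ZNRF3 (chr22:29279560-29453476, plus strand), a ubiquitin ligase that removes Wnt receptors, had a summit at 813 and 804 bp in replicates 2 and 3 of HA-Bcl-xL, with 13 and 9 fragments at the summit. TMA16 (chr4:164415594-164441691, plus strand) had its strongest at 803 and 776 bp with 10 and 12 fragments. PARVA (chr11:12399110-12556903, plus strand), a focal adhesion protein, had it at 850 and 824 bp with 7 and 11 fragments. In control, the first 3 were H4C15, PTPRH and CMSS1. H4C15 (chr1:149825607-149832725, minus strand) is a histone H4 gene with near-identical copies, and the treatment of reads that match several copies is not given in the sources used here. Its strongest summit lay at 320, 281 and -1206 bp. PTPRH (chr19:55692615-55720874, minus strand), a receptor tyrosine phosphatase, had a single summit at 2227, 2198 and 2227 bp with 6, 10 and 6 fragments. CMSS1 (chr3:99536681-99900576, plus strand) had its strongest at 6, -249 and 29 bp with 10, 7 and 9. The median summit at solitary promoters had 9 to 11 fragments in the H3K4me3 libraries.

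Of the lists of genes related to the cells and the transgene, the granule and transmitter genes had the most solitary members, 9 of 13, of which 8 had a summit in at least 1 library and 4 in all 5, beside 40% and 16% of all solitary promoters. Those 4 were SCG2, CHGB, SCG3 and SYT1. CHGB, chromogranin B, had its strongest summit at 664, 610 and 610 bp in control cells and 730 and 822 bp in HA-Bcl-xL. SYT1, the calcium sensor of vesicle fusion, had it at 681, 681 and 686 bp and at 694 and 670 bp, before its canonical start at 781 bp. SCG3, secretogranin III, had it at 599, 549 and 595 bp and at 13 and 555 bp. The strongest summits of these 4 genes lay downstream in all 5 libraries, as at 51.3% of the 1644 promoters with a summit in all 5. DDC, the decarboxylase that makes serotonin and dopamine, had no summit in any library. Of the other solitary members of this list, SLC18A1 had a summit in 4 libraries and PCSK1 in 3. TPH1 had one in 2, both HA-Bcl-xL, and CHGA, chromogranin A, in 1, control replicate 1. Of the neuroendocrine transcription factors, 3 of 10 were solitary. RFX6 had a summit in all 5 libraries, with the strongest at 1102, 771 and 992 bp in control cells and 497 and 724 bp in HA-Bcl-xL. FOXA2 had a summit in 4 libraries. PAX6 had none within 2.5 kb of its most 5′ end, and its canonical transcript starts at 6639 bp.

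Of the BCL2 family, 4 of 8 were solitary. All 4 had a summit in at least 1 library and 1 had it in all 5, beside 40% and 16% of all solitary promoters. BAK1 had a summit in 4 libraries, and BAD and BAX each in 2 control libraries only. BCL2 itself, chr18:60790579-60987361 on the minus strand, had a summit in all 5, with the strongest at 1048, 995 and 1098 bp in control cells and 988 and 384 bp in HA-Bcl-xL. The gene of the transgene, BCL2L1, was not among the solitary ones. Of the TGF-beta pathway genes 6 of 10 were solitary. The receptor gene TGFBR2 had a summit in all 5, the strongest at 1130, 1132 and 1142 bp in control cells and 696 and 677 bp in HA-Bcl-xL, while TGFBR1 had none. Of the genes for H3K4 methylation and CtBP, 5 of 15 were solitary and 2 had a summit in all 5. RBBP5, a core subunit of the methyltransferase complexes, had its strongest at -20, -21 and -352 bp in control cells and 2 and 2 bp in HA-Bcl-xL. ASH2L, another core subunit, had it at 355, 313 and 6 bp and at 364 and 12 bp. Of the reference genes 2 of 11 were solitary. PPIA, cyclophilin A, had its strongest at 840, 837 and 833 bp in control cells and 864 and 867 bp in HA-Bcl-xL, and HPRT1 had none. Among the list members with a summit in all 5 libraries, the strongest positions of the lines did not overlap at CHGB, RBBP5 and PPIA (HA-Bcl-xL more downstream) or at RFX6, BCL2 and TGFBR2 (control more downstream). Over all 1644 such promoters the shares were 10.3% and 11.1%, and nothing is read from these few genes. Over the 6 lists 10 of 29 solitary members had a summit in all 5 libraries, beside 16% of all solitary promoters, and nothing is read from lists this short. Of 14 annotated markers of other cell types 8 were solitary (PTPRC, CD3E, DCN, ALB, MYH7, MYOD1, GFAP and CDH5). None of these had a summit in any library, as was the case for 60.0% of all solitary promoters.

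Short motifs of the bases before the 5′ end were counted by the position of the summit. The CCAAT box was found in the 100 bases before the 5′ end at 18.9% of all 10307 solitary promoters (1948) and at 27.7% of the 1644 with a summit in all 5 libraries (455). Where the strongest summit stayed from -150 to 100 bp in all 5 libraries it was found at 43.3% (145 of 335), and where it stayed from 201 to 1000 bp at 19.9% (70 of 351). The ETS core was found at 4.07% of all solitary promoters (420), at 16.4% of those with the summit at the 5′ end (55 of 335) and at 7.69% of those with it from 201 to 1000 bp (27 of 351). The NRF1 core was found at 2.11% of all (217), and at 6.27% (21) and 2.56% (9) of these 2 sets. For the GC box the order was the other way, with 33.8% of all, 42.7% (143 of 335) at the 5′ end and 48.1% (169 of 351) inside the gene. In 101 bases centred on the median strongest summit, the GC box was found at 44.2% (148 of 335) and 25.4% (89 of 351), the reverse of that order. There the CCAAT box was found at 39.1% (131) and 18.2% (64), and the ETS core at 67 of 335 and 20 of 351. GC content in the 100 bases before the 5′ end was 62.5% and 65.6% in the 2 sets. Both strands were searched, and matches of different motifs may overlap. A match of letters is a description and not a site, and the sets were defined by the summits, so the shares are given with no test.

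**Figure D5:**
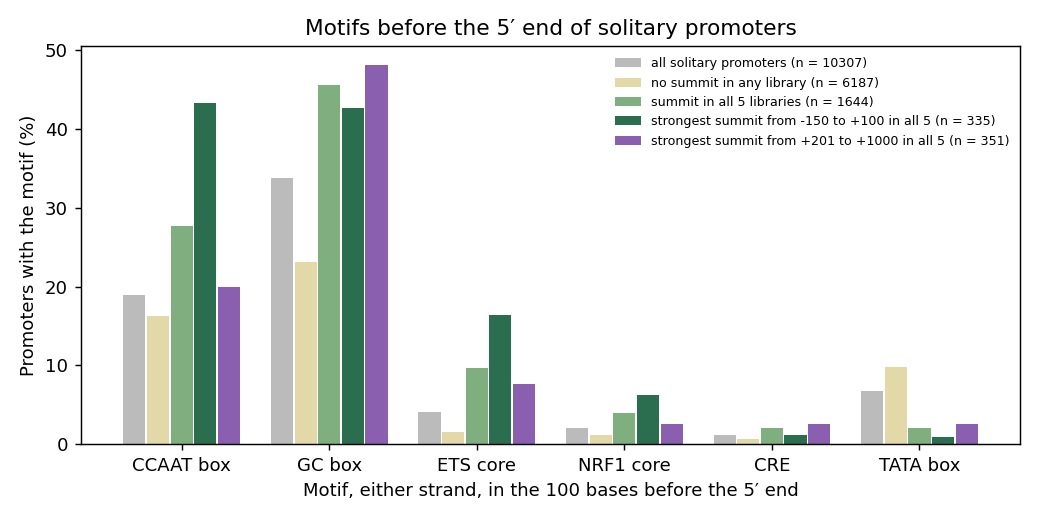
Share (%) of solitary promoters with each motif on either strand in the 100 bases before the 5′ end, for all solitary promoters and for sets by H3K4me3 summit. CCAAT box, ETS core and NRF1 core are most frequent where the strongest summit lay from -150 to 100 bp in all 5 libraries; the CRE motif is TGACGTCA and the TATA box TATAAA.

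The values on either side of the rule's limits are given as a description. Promoters with the nearest other 5′ end at 5001 to 6000 bp had a summit in 20.1 to 30.7% of 618, and those just outside, at 4001 to 5000 bp, in 20.4 to 30.3% of 697. Of their summits, 63.2 to 66.4% and 64.7 to 71.0% were downstream, so the downstream share did not set solitary promoters apart at this limit. Summits from 2001 to 2500 bp from the 5′ end numbered 67 to 131 per library, of which 92.2 to 94.4% were downstream, and those from 2501 to 3000 bp numbered 45 to 79, of which 88.6 to 95.6% were downstream.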

How the data were processed

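Per the submitters' processing notes, bcl2fastq 2.20, Trimmomatic 0.36, Bowtie2 2.2.9, MACS2 2.1.1 and deepTools 3.5.1 were used with build hg19 (GRCh37). The settings, the treatment of duplicates and any control are not given in the sources used here. For each of the 11 libraries used, the deposited file was a peak list of its own and not one of pooled replicates. Each deposited peak has a fold enrichment (a ratio), a -log10 p, a -log10 q and a summit offset. Within each list, these values served to rank and filter its peaks. The number of fragments at a summit and the background were solved from the fold and the -log10 p, taking the fold as (n + 1) / (background + 1) and p as a Poisson tail. A whole number fitted within 0.001 for 95.8 to 99.97% of peaks per list. The lists give no read totals.

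Promoters came from GENCODE release 44 lifted to GRCh37. Summit positions are 1-based. Libraries, not promoters, were the replicates. Groups were compared by two-sided exact permutation tests over all splits, and 2 classes of promoters by exact sign-flip permutation over the 5 H3K4me3 libraries, with Benjamini-Hochberg adjustment over 17 comparisons. The steps were tested on simulated data. Python 3.11.15, numpy 2.4.6, pandas 2.3.3, scipy 1.17.1, statsmodels 0.14.6, matplotlib 3.10.9 and pysam 0.24.0 were used.

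The members, gene lists and rules were chosen with earlier results of these data known. Named promoters were the 5 with the highest mean percentile rank among those with every summit downstream, the same upstream, the 5 with most peaks, the 5 with the smallest span of the strongest summit, up to 3 found in 1 line only, and solitary members of the gene lists with a summit in all 5 libraries or in none. Some other solitary list members are named only with the number of libraries that had a summit. Replicate 1 of HA-Bcl-xL with H3K4me3 was not analysed here. Intervals cover counting error only, as PCR copies of 1 fragment are not separate molecules.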

Additional observations from a re-analysis of the deposited data

How the results depend on the processing

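Alternatives were a window of 1 kb, no other 5′ end within 10 kb, lists of equal length, a minimum -log10 q of 5, the canonical anchor, summits near the 5′ end left out, peak midpoints, removal of peaks overlapping IgG peaks, other limits of class, a replicate block and leaving out each H3K4me3 library. Over the 17 comparisons these gave 163 values, of which 157 kept their direction and side of the threshold. Leaving out a library gave 80, of which 79 did. No comparison could pass 0.05, so the side of the threshold says nothing of stability. The direction turned for the median position between the lines in a window of 1 kb (24 bp). For the share downstream between the lines it turned with summits within 50 bp (-0.173 points) or from -150 to 100 bp (-1.45 points) left out. The rank difference turned with the latter (3.65 points). The width difference (log2) was -0.0136 in a window of 1 kb, -0.00923 with midpoints and -0.0164 to 0.0104 with a library left out, the lowest without HA-Bcl-xL replicate 2. It was 0.0998 with summits from -150 to 100 bp left out, and 0.00338 to 0.0265 under the other alternatives. The cause of these turns was not tested.

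Whether the replicate numbers pair the libraries is not known. The differences in peaks per promoter between replicates 2 and 3 of the lines correlated at r = 0.0478 across 10307 promoters, which are not independent replicates. As 60.0% of these promoters had no summit in any H3K4me3 library, this value cannot decide it. With the replicate block the difference in marked promoters between the lines was 6.22 points, in the share downstream 0.985 points, in median position -6.5 bp and in peaks per promoter 0.173. It left 26.2 and 30.0 points between the antibodies. No H3K4me3 peak list at solitary promoters had a median above 11 fragments at the summit. This may limit how well a weak second peak can be seen, which was not tested.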

Other observations

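CpG-poor solitary promoters that did carry H3K4me3 had a more downstream pattern. Their summits were downstream in 78.0 ± 1.05% and from 1001 to 2500 bp in 30.2 ± 1.02% (SD, n = 5), against 69.5 ± 0.669% and 19.3 ± 0.484% at CpG-rich ones. The TATA box letters (TATAAA on either strand, in the 100 bases before the 5′ end) were found at 6.78% of all solitary promoters, at 9.83% of those with no summit in any library and at 2.07% of those with a summit in all 5. Of 480 promoters with TATAAA or TATATA on the gene's strand from -40 to -21 bp, 7.92 ± 1.37% had a summit, against 29.0 ± 4.23% of the other 9827 (SD, n = 5).

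Genes shorter than the window were the exception to the downstream pattern. At the 767 solitary genes shorter than 2500 bp, of which 47 to 70 per library had a summit, 53.0 ± 6.38% of summits were downstream, with a range of 45.5 to 58.3% over the 5 libraries, and 41.3 ± 6.35% lay from -150 to 100 bp (SD, n = 5). These values were looked at after others had been seen, and none was tested.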
